A study of Mus musculus with 63 samples.

Results

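On days 7 to 9 after the first tamoxifen injection, the livers of 6 KO males, induced to lose Hcfc1 in their hepatocytes, were set against the livers of 6 WT males. These 12 libraries were chosen by genotype and day alone, with 2 libraries per genotype on each of days 7, 8 and 9, out of 63 libraries of a course that runs from day 0 to day 14 and also holds 12 Het females. KO males carried Alb-Cre-ERT2tg, a tamoxifen-inducible Cre recombinase under the albumin promoter, together with an Hcfc1 lox/Y locus, and are labelled Hcfc1 hepKO/Y. WT males are labelled C57BL/6, and by the treatment protocol they carried Hcfc1 lox/Y without the Cre transgene. All 12 mice were 10 to 14 weeks old and received 3 injections of 1 mg tamoxifen each at intervals of 24 h, so lox allele and tamoxifen were common to both groups. Cre and the loss of Hcfc1 differed together between the groups and cannot be told apart. Each library was made from the poly(A) RNA of 1 mouse's liver, so the p-values measure the spread between mice. In such bulk libraries, fewer cells of a type and less RNA per cell cannot be told apart.

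HCF-1, the product of the X-linked gene Hcfc1, is a co-regulator of transcription that does not bind DNA itself. It is brought to promoters by DNA-binding factors such as ZNF143, THAP11, YY1, GABP and E2F proteins, and it tethers enzymes that modify histones, among them H3K4 methyltransferases and the Sin3 deacetylase. In hepatocytes, a complex of HCF-1 with the glycosyltransferase OGT is known to stabilise PGC-1alpha, a co-activator of mitochondrial and metabolic genes.

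Depth, estimated from the step that 1 read makes in weakly expressed genes, was 16700000 to 28700000 reads in KO livers and 18400000 to 31700000 reads in WT livers, so that 1 read over 2000 bases of exon was worth 0.0174 to 0.03 RPKM in KO livers and 0.0158 to 0.0272 RPKM in WT livers. Differences below are on the log2 scale, KO minus WT within each day and averaged over the 3 days, after each library was centred on its own median over 12221 tested genes. Levels are given as scaled RPKM, that is reads per kilobase of exon and per library size, brought to the median common to the 12 libraries. Spearman's rho over the tested genes was 0.975 to 0.995 between KO libraries and 0.980 to 0.990 between WT libraries, and 0.916 to 0.946 between a KO and a WT library. The first principal component, with 41.7% of the variance, separated the genotypes. On the values as deposited, the KO medians lay 0.20 (log2) above the WT medians, and differences without the centring are larger by that amount.

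Hcfc1 itself (X:71188131-71211696 in NCBIM37, the mm9 assembly) had 16.1, 13.9, 15.6, 12.6, 12.6 and 12.3 scaled RPKM in the 6 KO livers, in the order of the days, and 7.68, 6.59, 7.81, 7.23, 6.72 and 4.77 in the 6 WT livers. Every KO library lay above every WT library, and the difference was 1.04 ± 0.12 (log2, standard error; adjusted p = 3.36e-08, limma). This gene-level value counts reads of every exon, floxed or not, and so is no check of the deletion. The same difference was 0.15 on day 0 and 0.99 on days 5 to 6.

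Of the 12221 tested genes, 4062 were higher (33.2%) and 3560 were lower (29.1%) in KO than in WT livers at an adjusted p under 0.05 (limma, Benjamini-Hochberg). Counts within the gene lists below are to be read against these shares. By 2-fold or more, 932 genes were higher (7.63%) and 931 were lower (7.62%), and the median difference over all tested genes was 0.06 (log2). In 2098 genes (17.2%) every KO library lay above every WT library, and in 2068 genes (16.9%) every KO library lay below. Of the 7622 genes called, 96.9% had the same sign on each of the 3 days. The calls rest on the mean over these same days, so a shared sign partly follows from the choice. Without the centring 5290 genes were higher and 2080 lower, so that 71.8% of the calls were higher in KO livers, against 53.3% with it, and 1352 genes were higher and 674 lower by 2-fold or more. Of the genes called lower, 2079 were called lower on both scales, and every gene called higher with the centring was called higher without it. The labels give 2 batches, with replicate 1 of days 7 and 8 in the first and the other libraries in the second. Within the second batch 3553 genes were higher and 3008 lower, and within the first, with 4 libraries, 635 were higher and 749 lower. The first batch has 1 library per genotype and day, and the spread behind its calls rests on 2 KO livers of day 14.

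**Figure D1:**
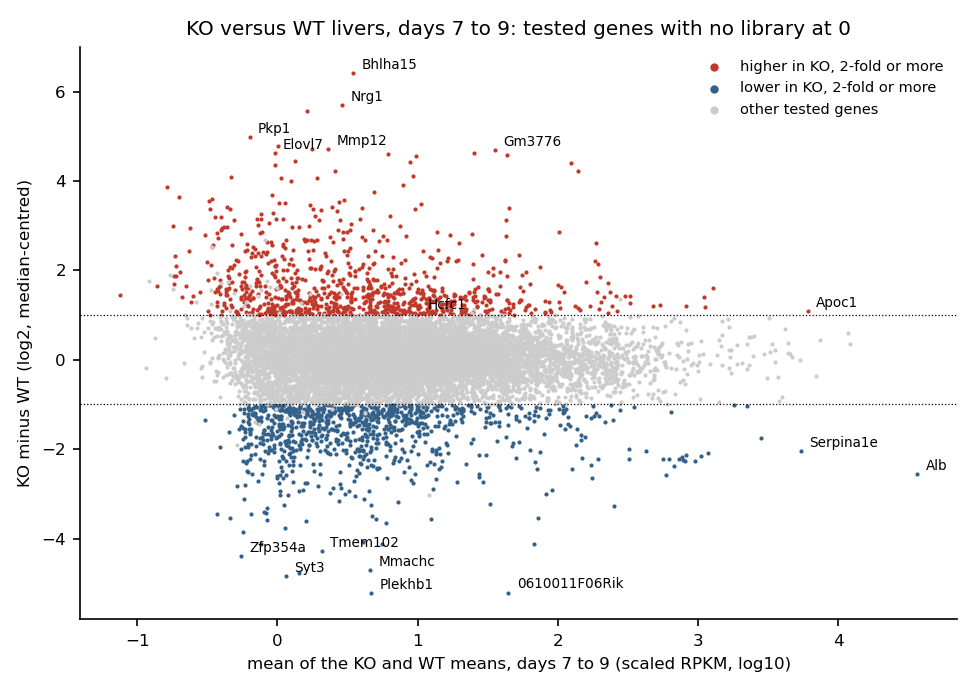
Difference between KO and WT livers on days 7 to 9 (log2, median-centred, y axis) against the mean level (scaled RPKM, log10, x axis) for tested genes with no library at 0. Red points are higher and blue points lower in KO livers by 2-fold or more at an adjusted p under 0.05; the most strongly lowered genes, Plekhb1 and 0610011F06Rik, lie near -5 and Bhlha15 near 6.

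Among called genes whose groups did not overlap, the largest falls left most genes below 1 scaled RPKM in KO livers. Thtpa (14:55713672-55717823), the hydrolase of thiamine triphosphate, had 0.615, 0.552, 0.664, 0.598, 0.531 and 0.654 scaled RPKM in the KO group, compared with 9.71, 9.99, 9.99, 11.7, 11.9 and 9.85 in the WT group. The KO libraries spread over a narrow band far below the WT libraries, and the difference was -4.13 ± 0.11 (adjusted p = 1.93e-19). Mmachc (4:116374884-116381011), which frees cobalamin from its upper ligand so that cells can use vitamin B12, had 0.261 to 0.521 scaled RPKM in KO livers (median 0.330) and 8.10 to 9.73 in WT livers (median 8.91). 0610011F06Rik (17:26012409-26022952), a gene of no stated role, averaged 2.42 ± 0.73 scaled RPKM in KO livers and 86.5 ± 14.3 in WT livers (SD, n = 6 each), a 36.9-fold lower level. Plekhb1 (7:107791406-107810928), a membrane-binding pleckstrin-homology protein, fell by 5.22, Syt3, a synaptotagmin, by 4.84 and Ctf1, the cytokine cardiotrophin-1, by 4.78 on the log2 scale.

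Among the other large falls, Clpb, a disaggregase of the mitochondrial intermembrane space, averaged 0.474 ± 0.139 scaled RPKM in KO livers and 7.67 ± 0.77 in WT livers. Zfp354a, a zinc finger repressor, fell by 4.40, Tmem102 by 4.28 and Mypop, a Myb-related transcription factor, by 4.11. Cyp4a14, an omega-hydroxylase of fatty acids and a well-known PPAR-alpha target, was at 3.65 to 13.2 scaled RPKM in KO livers and 32.1 to 190 in WT livers; it fell by 4.13, and by 4.72 without day 7. Nat1, an arylamine N-acetyltransferase, was listed at 0 in 4 KO livers and at 0.0184 and 0.0315 scaled RPKM in the other two, both of day 8, against 0.674 to 1.39 in WT livers. These 12 genes were picked among genes with no overlap between KO and WT libraries, so their separation was a condition of the choice.

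**Figure D2:**
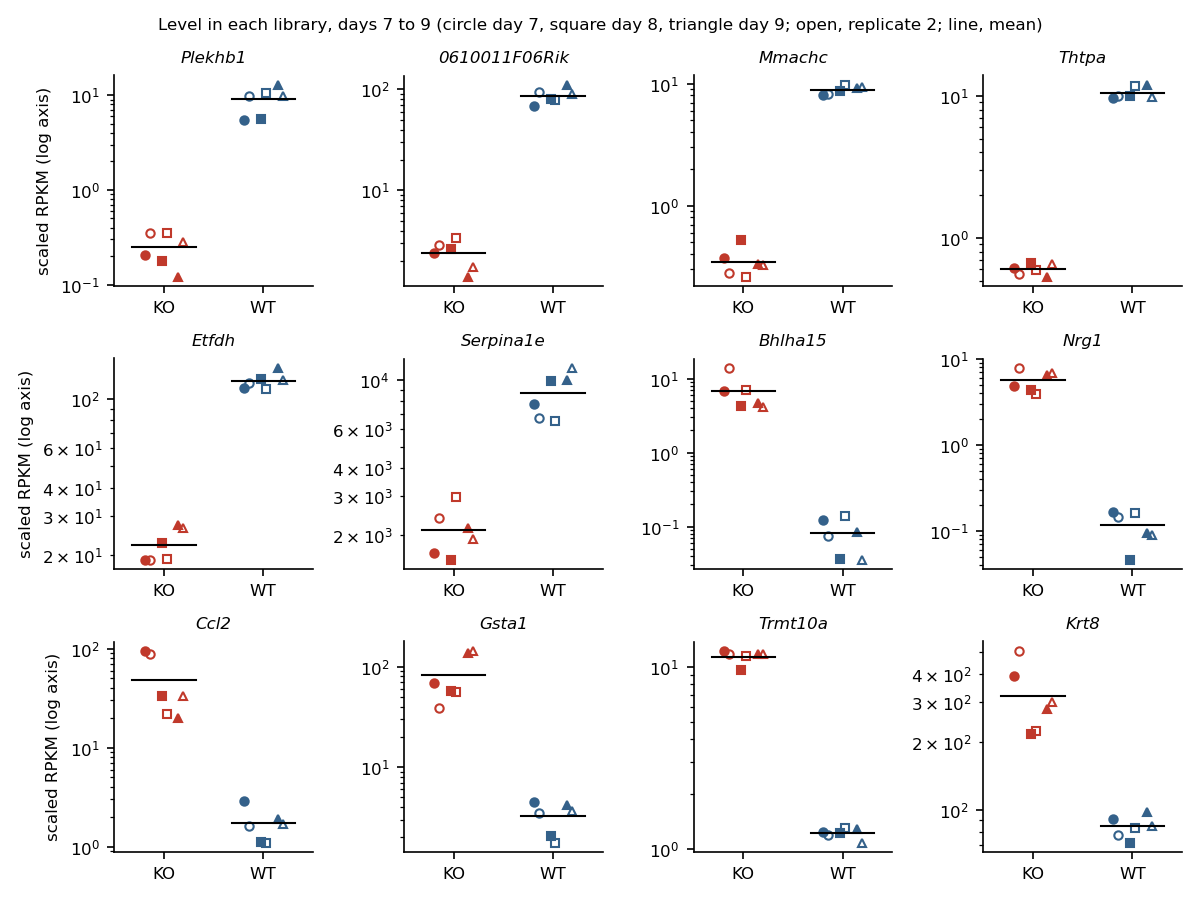
Level of 12 genes in each of the 6 KO and 6 WT livers (scaled RPKM, log axis); circles are day 7, squares day 8, triangles day 9, open symbols replicate 2, and lines are means. Plekhb1, 0610011F06Rik, Mmachc, Thtpa, Etfdh and Serpina1e are lower and Bhlha15, Nrg1, Ccl2, Gsta1, Trmt10a and Krt8 higher in KO livers. No panel shows an overlap between the genotypes, which was a condition for picking most of these genes.

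Short DNA words were searched on both strands of RefSeq promoter windows (build GRCm38.p6, 250 bases before to 50 after the start). They are words of recruiters of HCF-1 named above, and of NRF1 and CREB factors, which were not named there. The searched words were ACTACAAT for the core shared by ZNF143 and THAP11, AAGATGGC for YY1, CCGGAAGT for ETS factors with GABPA, GCGCATGC for NRF1, TGACGTCA for CREB factors and TTTCGCGC for E2F. Of the 12 largest falls 9 had a window, and 1 of these, that of Mypop, holds a word, the NRF1 one. The 5 promoters shown were picked among 8 genes with large falls whose window holds a word. The others were Zfp72 with TGACGTCA, and Nprl2 and Sssca1 with CCGGAAGT, so the 5 do not show how often each word occurs. Capitals mark the word, and the sequence runs along the gene's own strand. Bola1 is a partner of mitochondrial iron-sulfur proteins, Zfp169 a zinc finger protein, Uqcr10 a subunit of complex III and Ndufa3 a subunit of complex I.
Bola1, chr3:96197537-96197836, minus strand, ACTACAAT 125 bases before the start: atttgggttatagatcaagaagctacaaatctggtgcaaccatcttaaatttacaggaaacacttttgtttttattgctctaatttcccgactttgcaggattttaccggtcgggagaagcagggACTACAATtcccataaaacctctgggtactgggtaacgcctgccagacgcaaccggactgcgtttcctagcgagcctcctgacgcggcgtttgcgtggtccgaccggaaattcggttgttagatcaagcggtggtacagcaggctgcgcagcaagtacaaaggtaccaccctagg
Zfp169, chr13:48513387-48513686, minus strand, ACTACAAT on the opposite strand 73 bases before the start: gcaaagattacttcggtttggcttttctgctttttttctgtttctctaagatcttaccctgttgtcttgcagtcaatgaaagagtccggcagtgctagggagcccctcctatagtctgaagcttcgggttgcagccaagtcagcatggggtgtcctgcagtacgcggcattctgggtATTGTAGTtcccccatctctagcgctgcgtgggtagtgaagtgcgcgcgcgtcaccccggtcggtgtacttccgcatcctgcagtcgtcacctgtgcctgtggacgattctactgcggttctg
Uqcr10, chr11:4704295-4704594, minus strand, ACTACAAT 58 bases before the start: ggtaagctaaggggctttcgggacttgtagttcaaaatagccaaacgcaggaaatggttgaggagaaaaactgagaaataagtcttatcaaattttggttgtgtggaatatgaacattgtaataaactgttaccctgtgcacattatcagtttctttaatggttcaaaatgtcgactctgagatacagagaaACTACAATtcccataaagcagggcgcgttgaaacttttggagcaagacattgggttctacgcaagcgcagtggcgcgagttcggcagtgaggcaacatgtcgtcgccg
Ndufa3, chr7:3617123-3617422, plus strand, AAGATGGC 22 bases after the start: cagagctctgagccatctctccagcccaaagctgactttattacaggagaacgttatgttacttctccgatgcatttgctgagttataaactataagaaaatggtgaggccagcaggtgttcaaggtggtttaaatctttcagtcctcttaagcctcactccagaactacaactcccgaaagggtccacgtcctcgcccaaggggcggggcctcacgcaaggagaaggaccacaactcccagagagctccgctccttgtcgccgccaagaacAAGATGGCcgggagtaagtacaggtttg
Mypop, chr7:18990995-18991294, plus strand, GCGCATGC 20 bases before the start and on the opposite strand 220 bases before it: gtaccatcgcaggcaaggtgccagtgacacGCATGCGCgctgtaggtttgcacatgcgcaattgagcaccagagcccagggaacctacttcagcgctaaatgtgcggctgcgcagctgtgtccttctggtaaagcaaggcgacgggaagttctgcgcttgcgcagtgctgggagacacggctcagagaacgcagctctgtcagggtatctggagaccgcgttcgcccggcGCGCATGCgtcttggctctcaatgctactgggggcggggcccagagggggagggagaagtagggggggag

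Of 118 tested genes whose window holds ACTACAAT, 31 were lower by 2-fold or more (26.3%, against 7.62% of all tested genes) and 8 were higher by 2-fold or more (6.78%). Bola1 averaged 0.944 scaled RPKM in KO livers and 10.9 in WT livers, and Zfp169 0.151 in KO livers and 1.45 in WT livers. Uqcr10 averaged 18.6 ± 4.3 in KO livers and 147 ± 24 in WT livers (SD, n = 6 each). Atp5d, the delta subunit of ATP synthase, averaged 22.2 in KO livers and 159 in WT livers, and Mdh1, the cytosolic malate dehydrogenase, 48.1 in KO livers and 300 in WT livers; both also hold the word. For the other words the share lower by 2-fold or more was 4.34% of 507 genes for AAGATGGC, 4.86% of 885 for CCGGAAGT, 7.10% of 563 for GCGCATGC, 7.62% of 341 for TGACGTCA and 10.4% of 77 for TTTCGCGC. A match is a description of letters, not of binding. Over all 27025 windows, 0.844% hold ACTACAAT, 3.19% AAGATGGC, 4.31% CCGGAAGT, 3.05% GCGCATGC, 2.03% TGACGTCA and 0.374% TTTCGCGC. How often lowered and raised genes hold a word was not compared. Only 739 of the 931 lowered and 714 of the 932 raised genes matched a window, a limit that holds for the shares above as well.

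**Figure D3:**
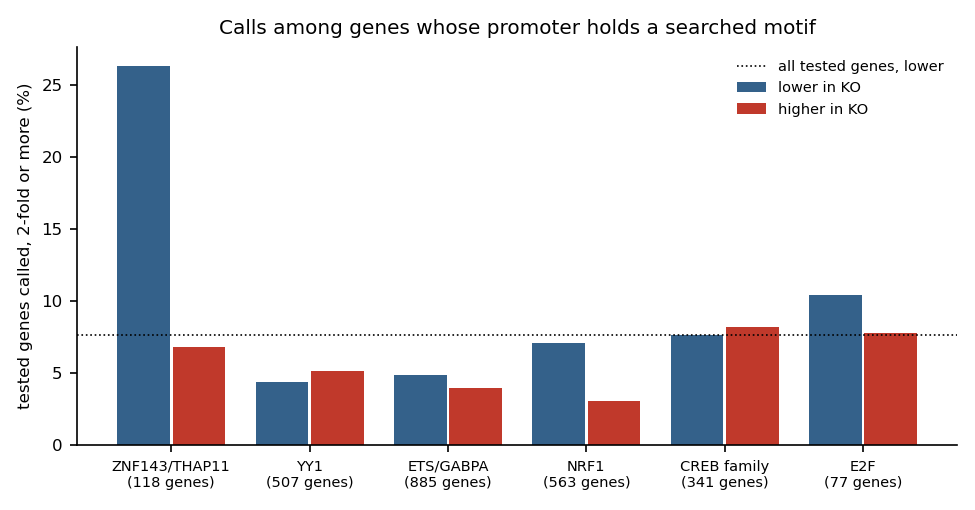
Share of tested genes called lower (blue) or higher (red) in KO than in WT livers by 2-fold or more (y axis, %) among genes whose promoter window holds each searched word (x axis, number of genes in brackets). The dotted line is the 7.62% of all tested genes that were lower; the genes with the ZNF143 and THAP11 word stand at 26.3%.

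Several lowered genes share a promoter region with another lowered gene. Of 807 protein-coding genes that were lower by 2-fold or more and could be placed on NCBIM37, 93 (11.5%) have a protein-coding neighbour starting within 1000 bases on the opposite strand, against 44 of 843 raised genes (5.22%) and 1051 of all 11066 tested coding genes (9.5%). The neighbour was itself lower by 2-fold or more in 24 of the 84 such cases where it was tested (28.6%). Over all tested genes the share was 8.88% of 946. These 24 cases are 12 pairs, each counted from both sides. Among the raised genes, the neighbour was itself higher by 2-fold or more in 4 of 42 cases (9.52%), against 4.44% of 946. Mmachc starts 103 bases from Ccdc163, which averaged 0.642 scaled RPKM in KO livers and 2.96 in WT livers. Uqcr10 and Zmat5 start 336 bases apart, and Zmat5 averaged 2.49 in KO livers and 6.06 in WT livers. Acad8, an acyl-CoA dehydrogenase of valine breakdown, starts 111 bases from Thyn1 and averaged 3.75 in KO livers and 23.2 in WT livers. Genes lower by 2-fold or more had a median exon length of 2862 bases and those higher by 2-fold or more 3100.5 bases. Both medians lie below the 3584.5 bases of all tested genes. The median level in WT livers was 5.44 scaled RPKM for the lowered genes, 1.36 for the raised genes and 6.01 over all tested genes.

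Among called genes whose groups did not overlap, the largest rises started from levels near 0 in WT livers. The 12 genes with the largest differences were each listed at 0 in 2 to 6 of the WT livers, so no fold is given. Slc7a11, the cystine importer, had 0.223 to 2.01 scaled RPKM in KO livers and at most 0.00348 in WT livers, 4 of which were at 0. Tinag, a basement membrane antigen of the kidney, had 0.947 to 4.59 in KO livers and at most 0.0366 in WT livers. Sprr1a, a cornified-envelope protein that is also induced by injury, had 2.80 to 18.1 in KO livers and at most 0.159 in WT livers. The others were Bex2, Fosl1, Slc1a1, Spink3, Gpx2, 2310034O05Rik and the small RNA genes Mir1945, AF357359 and Snord16a, which poly(A) libraries sample poorly. Mir1945 and Snord16a have exons of 78 and 99 bases, so that few reads make up their levels. Snord16a no longer passed without replicate 1 of WT day 8 (adjusted p = 0.119), without day 8 (0.0686) or without day 9 (0.332), and on day 0 it already had 0.727 and 1.54 scaled RPKM in KO livers and was listed at 0 in both WT livers. Mir1945 no longer passed without day 7 or without day 9 (adjusted p = 0.0582 each), Fosl1 without day 7 (adjusted p = 0.0959), Gpx2 without day 9 (adjusted p = 0.07) and Slc1a1 with the stricter filter on low values (adjusted p = 0.177).

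Among genes with reads in all 12 libraries, Bhlha15 (5:144951155-144955310), the secretory-cell factor MIST1, had 6.89 and 13.9 scaled RPKM in KO livers on day 7, 4.22 and 7.02 on day 8 and 4.73 and 4.17 on day 9, against 0.0357 to 0.139 in WT livers. The groups did not overlap, and the difference was 6.42 ± 0.39 (adjusted p = 5.60e-13). Nrg1 (8:32928500-33119581), the ErbB ligand neuregulin, averaged 5.68 ± 1.53 in KO livers and 0.116 ± 0.048 in WT livers (SD, n = 6 each). Gsta1 (9:78078463-78090491), an alpha-class glutathione transferase, had 68.0 and 38.6 in KO livers on day 7, 57.6 and 55.8 on day 8 and 138 and 143 on day 9, and 1.76 to 4.45 in WT livers. Its near-identical neighbour Gm3776 showed the same pattern, and reads between the pair may be shared. Trmt10a, a tRNA guanosine methyltransferase, was the gene with the smallest p-value: it had 9.60 to 12.2 in KO livers and 1.08 to 1.31 in WT livers, a difference of 3.22 ± 0.08 (adjusted p = 1.36e-19).

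Pkp1, a desmosomal plakophilin, rose by 4.98 and Ntrk2, a neurotrophin receptor, by 4.78. Elovl7, an elongase of long-chain fatty acids, rose by 4.62 and Gm19619, of no stated role, by 4.6. Mmp12, the macrophage elastase, had 0.711 to 15 scaled RPKM in KO livers and 0.0541 to 0.208 in WT livers. Gpnmb, a glycoprotein of lipid-laden macrophages, rose by 5.56, and by 6.42 without day 9, 6.18 without replicate 1 of WT day 8 and 4.94 without replicate 2 of WT day 8. Akr1c18, a 20-alpha-hydroxysteroid dehydrogenase, rose by 4.57, and by 3.88 without day 9.

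Among genes whose groups did not overlap, Apoc1, an apolipoprotein, had the largest gain, with 6708 to 9924 scaled RPKM in KO livers and 3173 to 4910 in WT livers. Clu, the extracellular chaperone clusterin, had 1212 to 2071 in KO livers and 457.3 to 796.7 in WT livers. Ftl1, the light chain of the iron store ferritin, the pheromone-binding Mup20, Pzp, Ubb, Mbl2 and Cp, the copper protein ceruloplasmin, also rose with no overlap. Serpina1e, an alpha-1-antitrypsin paralog, had the largest loss in level among such genes, with 1670, 2380, 1550, 2960, 2160 and 1930 in KO livers and 7790, 6750, 9890, 6500, 9970 and 11300 in WT livers, a difference of -2.05 ± 0.19 (adjusted p = 1.43e-09). Fabp1, the hepatocyte fatty acid binding protein, had 2084 to 3083 in KO livers and 3449 to 6037 in WT livers, and Bhmt, which remethylates homocysteine, 1043 to 1964 in KO livers and 2556 to 3531 in WT livers. Serpina3k, the major urinary protein genes Mup3, Mup2 and Mup19, and LOC100048884 fell as well. Mup2 fell by 2.26, by 2.97 without day 7 and by 1.61 without day 8. Without day 7 Mup19 fell by 2.82 and LOC100048884 by 2.69, against 2.16 and 2.08 with it. The Serpina1 and Mup families hold near-identical copies among which reads may be split.

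Alb, serum albumin, was uneven among KO livers. It had 5700 and 4860 scaled RPKM in KO livers on day 7, 30800 and 41600 on day 8 and 4840 and 4530 on day 9, against 36500 to 71000 in WT livers. Replicate 2 of KO day 8 overlapped the WT livers, and the other 5 KO livers lay below all of them, replicate 1 of day 8 by the least. The difference was -2.56 ± 0.37 (adjusted p = 2.03e-06), and -3.41 without day 8. The Cre transgene carried by the KO mice is driven by the promoter of this gene. Of the 10 hepatocyte markers listed, 2 were higher and 5 lower, against 3 and 3 without the centring. Ass1, a urea cycle enzyme, and the cytochrome Cyp2e1 fell by 1.01 and 0.94, and Apoa1, the main protein of HDL, rose by 0.69. The summed level of the 10 markers was 23070 to 62810 in KO livers and 53220 to 88380 in WT livers. Alb is part of this sum, with 4530 to 41600 in KO livers and 36500 to 71000 in WT livers. The gap between the sums therefore follows Alb and does not show a lower level of the other markers.

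The mitochondrial respiratory chain, which passes electrons from NADH and succinate to oxygen and drives ATP synthesis, held more subunits that were lower than higher. Of 36 tested subunits of complex I, 4 were higher and 17 lower, 3 of them by 2-fold or more, and the median difference was -0.29, against 29.1% lower and a median of 0.06 over all tested genes. Ndufa3 (7:3568975-3571765) had 9.02 to 13.9 scaled RPKM in KO livers and 91.2 to 158 in WT livers, an 11.5-fold lower level. Ndufa13 fell by 1.87, Ndufb10 by 1.13 and Ndufa10 by 0.67, all with no overlap. Of 42 subunits of complexes II to V, 1 was higher and 19 lower, with a median of -0.19. Uqcr10 and Atp5d, described above with their promoters, fell by 2.99 and 2.92, and Cox7c and Cox8a, subunits of cytochrome oxidase, fell by 1.78 and 0.75. Without the centring 7 complex I subunits were higher and 12 lower, and 6 subunits of the other complexes were higher and 12 lower.

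Factors that assemble the chain moved the same way. Of 37 assembly factors 8 were higher and 21 lower, 8 of them by 2-fold or more, with a median of -0.37. Ndufaf3, which acts early in building complex I, had 0.624 to 1.20 scaled RPKM in KO livers and 6.36 to 11.9 in WT livers. Foxred1, another complex I factor, fell by 1.18, Bcs1l, which inserts the Rieske protein into complex III, by 1.24 and Surf1, a complex IV factor, by 1.12. Of 76 mitochondrial ribosomal proteins 33 were higher and 19 lower, with a median of 0.11, and 44 were higher and 13 lower without the centring, against 33.2% higher and 29.1% lower over all tested genes. Mrps18b had 66.3 to 97.9 scaled RPKM in KO livers and 19.6 to 27.2 in WT livers, and Mrpl24 had 6.95 to 8.75 in KO livers and 36.0 to 56.3 in WT livers. Mrpl19 rose by 1.65 and Mrpl38 by 1.33. Of 40 import proteins, chaperones and proteases of mitochondria 14 were higher and 9 lower; Grpel1, the nucleotide exchange factor of mitochondrial HSP70, rose by 0.89, the protease Lonp1 by 0.61, and Phb, prohibitin, fell by 0.95.

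Fatty acid oxidation, the main fuel pathway of fasted hepatocytes, was lower in 22 of 32 tested genes and higher in 3, with a median of -0.38, and lower in 14 and higher in 9 without the centring. Etfdh (3:79407710-79432785), which hands electrons from acyl-CoA dehydrogenases to ubiquinone, had 19.1, 19.1, 22.6, 19.3, 27.4 and 26.4 scaled RPKM in KO livers and 112, 118, 123, 111, 137 and 121 in WT livers. No library overlapped, and the difference was -2.44 ± 0.07 (adjusted p = 1.57e-18). Slc25a20, the carnitine carrier, fell by 1.05, Acsl1, which activates long-chain fatty acids, by 1.26 and Cyp4a32, an omega-hydroxylase of a multigene family, by 1.70. Among 22 PPAR-alpha targets and ketogenic genes 5 were higher and 8 lower with the centring, and 8 higher and 6 lower without it. The acyl-CoA thioesterases Acot3 and Acot4 fell by 2.76 and 0.91, and Slc27a1, a fatty acid transporter, fell by 1.60. Fgf21, a hormone that hepatocytes secrete in fasting and stress, had 3.29 to 7.56 scaled RPKM in KO livers and 0.0659 to 1.15 in WT livers, a rise of 4.23, or 4.89 without day 8.

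In lipid synthesis and storage the shares of called genes were near those of all tested genes (33.2% higher and 29.1% lower). Of 23 tested lipogenic genes 7 were higher and 7 lower, and 10 higher and 3 lower without the centring. Acly, which makes cytosolic acetyl-CoA from citrate, rose by 1.21 with 293 and 461 scaled RPKM in KO livers on day 7, 201 and 270 on day 8 and 117 and 130 on day 9, against 68.4 to 117 in WT livers, so that the lowest KO value met the highest WT value. Dgat1 and Dgat2, which make triglyceride, fell by 1.23 and 0.50, and Slc25a1, the citrate carrier, fell by 0.67. Of 24 lipid droplet and lipase genes 7 were higher and 9 lower, and 8 higher and 6 lower without the centring. G0s2, an inhibitor of adipose triglyceride lipase, had 5.48 to 9.28 scaled RPKM in KO livers and 19 to 30.5 in WT livers. The hepatic lipase Lipc fell by 0.86 and the droplet coat protein Plin5 by 1.02, while Lpl, lipoprotein lipase, which macrophages also express, rose by 1.42.

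Of 23 cholesterol synthesis genes 2 were higher and 9 lower, with a median of -0.31, but 5 were higher and 3 lower without the centring. Tm7sf2, a sterol reductase, fell by 1.93, Nsdhl by 0.80 and Idi1 by 0.69. Of 32 bile acid genes 8 were higher and 13 lower, against 10 and 10 without the centring. Slc10a1, the uptake carrier of bile acids, had 96.9 to 165 scaled RPKM in KO livers and 270 to 388 in WT livers. Baat, which conjugates bile acids, fell by 1.11 and Akr1d1, a reductase of their synthesis, by 1.30, while Abcb1a, a drug efflux pump, rose by 1.56.

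Amino acid breakdown, which in liver feeds the urea cycle, held many lowered genes. Of 55 tested genes of the urea cycle and amino acid catabolism 5 were higher and 34 lower, with a median of -0.35, and 11 were higher and 22 lower without the centring. Sds, serine dehydratase, had 18.1 to 122 scaled RPKM in KO livers and 144 to 258 in WT livers, with a difference of -2.45 ± 0.27. Mccc2 and Pccb, carboxylase subunits of leucine and propionate breakdown, fell by 0.85 and 0.53, and Agxt2, an alanine-glyoxylate transaminase, rose by 1.03. Of 35 genes of methionine, choline, folate and vitamin B12 metabolism 10 were higher and 17 lower, and 10 and 10 without the centring. Besides Mmachc and Bhmt, Ahcy, which clears S-adenosylhomocysteine, fell by 1.05, Cbs by 0.99 and Mat1a, the liver enzyme that makes S-adenosylmethionine, by 0.93, each with no overlap. Of 34 genes of glucose handling 6 were higher and 13 lower, but 8 higher and 4 lower without the centring; Ugp2 rose by 0.91 and Pfkfb3 by 1.73, while Pfkl fell by 0.45.

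Genes that mark the 2 ends of the lobule were counted apart. Of 21 periportal genes 6 were higher and 14 lower, with a median of -0.49, and 6 were higher and 8 lower without the centring: Asl fell by 1.35, Uroc1 by 0.70 and Otc by 0.68, the first and the last being urea cycle enzymes. Of 22 pericentral genes 10 were higher and 5 lower, with a median of 0.17, and 11 higher and 5 lower without the centring: Rhbg, an ammonia transporter, had 12.1 to 37.3 scaled RPKM in KO livers and 4.93 to 11.2 in WT livers, Lect2 rose by 1.11 and the organic anion carrier Slco1b2 fell by 0.95. Of 32 hepatocyte transcription factors 8 were higher and 8 lower, and 9 higher and 4 lower without the centring. Stat5b, the effector of growth hormone, fell by 0.81, the nuclear receptors Esrra and Rxra by 1.02 and 0.46, and Cebpd rose by 1.79. Of 53 cytochrome P450 and conjugation enzymes 20 were higher and 13 lower, though the median was -0.06. Gstm3, a glutathione transferase, rose by 2.60, and by 1.85 without day 9, and Ugt2b35, a glucuronosyltransferase, rose by 1.07. Of 48 secreted hepatocyte proteins 17 were higher and 7 lower. Apoc2, the activator of lipoprotein lipase, rose by 1.26 and F12, coagulation factor XII, by 0.71. Over all tested genes 33.2% were higher and 29.1% lower, and the shares higher among the P450 and conjugation enzymes and the secreted proteins are near that.

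Of 37 genes of the integrated stress response, in which phosphorylated eIF2alpha favours translation of ATF4, 23 were higher and 2 lower, with a median of 0.49. Their summed level was 805.1 to 1057 scaled RPKM in KO livers and 827.8 to 1011 in WT livers, which overlapped. Ddit3, the factor CHOP, had 13.0 to 27.8 scaled RPKM in KO livers and 3.11 to 4.71 in WT livers. Atf3 rose by 2.87 and the tRNA synthetase gene Sars by 0.97. Of 36 ER chaperone and unfolded protein response genes 21 were higher and 2 lower, with a median that stood at 0.91 for day 7, at 0.33 for day 8 and at 0.10 for day 9. On day 0, with 2 livers per genotype, the median of this list was -0.50, a value that was not tested. Dnajc10, an ER disulfide reductase, rose by 1.45, while Edem2, which trims glycans of misfolded proteins, had 5.31 to 7.78 in KO livers and 22.4 to 31.4 in WT livers.

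NRF2 controls genes of glutathione and redox defence, and 30 of its 43 listed genes were higher and 3 lower, 18 of them higher by 2-fold or more, with a median of 0.86. Srxn1, sulfiredoxin, had 103, 104, 59.8, 47.7, 98.8 and 122 scaled RPKM in KO livers and 14.9 to 18 in WT livers, a difference of 2.35 ± 0.13 (adjusted p = 5.76e-14). The autophagy receptor Sqstm1 rose by 1.43, Ephx1, epoxide hydrolase, by 1.52 and Ugdh by 1.30. Of 31 targets of p53 24 were higher and none lower, 17 of them by 2-fold or more, with a median of 1.104. Ddit4l, an inhibitor of mTORC1, had 3.50 to 7.24 in KO livers and 0.287 to 0.925 in WT livers, and Polk, a translesion polymerase, and Aen, an apoptosis-linked nuclease, rose by 1.49 and 1.23. Tnfrsf12a, the receptor of the cytokine TWEAK, had 15.6 to 51.8 in KO livers and 3.10 to 4.67 in WT livers.

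Of 36 BCL2 family and death regulators 20 were higher and 6 lower: the pro-death genes Bcl2l11 (BIM) and Bok rose by 1.81 and 1.31, and the pro-survival Bcl2l2 and the mitophagy receptor Bnip3 fell by 1.52 and 1.08. Of 27 heat shock genes 17 were higher and 1 lower. Hspa4 rose by 0.80, and its relative Hsph1, the 1 that fell, had 1.52 to 7.64 scaled RPKM in KO livers and 8.93 to 16.8 in WT livers.

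Among immediate early and MYC genes, which respond first to growth factors and injury, 27 of 31 were higher and 1 lower, 21 of them higher by 2-fold or more, with a median of 1.31. Maff rose by 2.71, Mafk by 1.57, Klf6 by 1.49 and Rhob by 1.35. Of 25 EGF, FGF and HGF ligands and receptors 13 were higher and 5 lower. Besides Nrg1, the ErbB ligand Btc, betacellulin, had 5.36 to 9.48 scaled RPKM in KO livers and 1.13 to 1.74 in WT livers, Tgfa rose by 1.47 and Pdgfc by 1.01.

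Of 46 mitosis genes 1 was higher and 9 lower over the window, and the days differed: on day 7 the median difference was -1.78, on day 8 it was 0.80, and on day 9 it was -0.32. Their summed level was 35.9 and 45.7 scaled RPKM in KO livers and 85.2 and 175 in WT livers on day 7. It was 75.5 and 61.3 in KO livers and 52.0 and 36.1 in WT livers on day 8, and 48.4 and 49.4 in KO livers and 55.3 and 63.7 in WT livers on day 9, so WT lay higher on days 7 and 9 and lower on day 8. Espl1, separase, was the 1 that rose, with 1.03 to 7.92 in KO livers and 0.150 to 0.530 in WT livers. Nek2 fell by 1.51 and by 0.90 without day 7, Ect2 fell by 1.06, and Cdc20 by 1.60. The last 2 differences no longer passed without day 7, at -0.47 (adjusted p = 0.188) and -0.76 (adjusted p = 0.243), so they rest on day 7. Of 42 S phase genes 8 were higher and 15 lower, against 33.2% higher and 29.1% lower over all tested genes. Prim1, a primase subunit, had 0.555 to 1.88 in KO livers and 3.10 to 5.49 in WT livers, and Mcm10 fell by 1.72, while Cdc45 rose by 1.07.

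Of 75 cytosolic ribosomal proteins 5 were higher and 36 lower, with a median of -0.24, but 23 were higher and 20 lower without the centring, so the direction of the family depends on the scale. Rplp1 had 121 to 244 scaled RPKM in KO livers and 532 to 834 in WT livers, and Rpl23a, Rpl12 and Rpl3 fell by 1.69, 1.26 and 0.90; many pseudogene copies of these genes exist. Of 39 ribosome biogenesis factors 24 were higher and 6 lower on the centred scale, with a median of 0.49. Utp20, of the small subunit processome, rose by 1.60, Rrp12 by 1.25 and Tsr1 by 1.06. Of 41 proteasome genes 18 were higher and 10 lower, and 24 were higher and 2 lower without the centring, with Psmb9, a subunit of the immunoproteasome, up by 1.24 and Psmd3 down by 0.79. Of 19 clock genes 5 were higher and 3 lower, at the 1 time of day sampled: Bhlhe40 rose by 1.58, and Hlf and Clock fell by 0.81 and 0.57. Neither clock share exceeds the 33.2% higher or the 29.1% lower of all tested genes.

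Of 31 partners of HCF-1 and complex members 14 were higher and 9 lower, with a median of 0.14, and 16 were higher and 4 lower without the centring. The share lower is near the 29.1% of all tested genes. Yy1 had 35.6 to 39.8 scaled RPKM in KO livers and 13.7 to 16.2 in WT livers, a 2.48-fold higher level (adjusted p = 1.20e-15). Zfp143, the mouse gene of ZNF143, had 5.55 to 7.11 in KO livers and 2.62 to 3.25 in WT livers, and Sin3a rose by 0.63. Hcfc1r1, which encodes a small HCF-1-binding protein, had 4.04 to 6.25 in KO livers and 19.3 to 26 in WT livers, a difference of -2.12 ± 0.09.

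Keratins and surface proteins of injured epithelium were raised: 22 of 28 were higher and 1 lower, 18 of them higher by 2-fold or more, with a median of 1.29 and a summed level of 2811 to 4642 scaled RPKM in KO livers and 993.8 to 1463 in WT livers. Krt8, a hepatocyte keratin, had 391, 504, 216, 222, 278 and 300 in KO livers and 71.3 to 98.1 in WT livers, a difference of 1.86 ± 0.09 (adjusted p = 1.68e-14). Its partner Krt18 rose by 1.72, the tubulin Tubb6 by 2.06 and Anxa5, annexin A5, by 1.51. Of 21 fetal liver genes 15 were higher and 2 lower. Ly6d had 126 to 436 in KO livers and 5.64 to 21.2 in WT livers, and Afp, alpha-fetoprotein, 2.51 to 7.49 in KO livers and 0.9 to 1.63 in WT livers. Aldoc fell by 1.29.

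Interferon-stimulated genes were higher in 30 of 38 and lower in none, with a median of 0.75. That median was already 0.39 on day 0 and 0.44 on days 5 to 6. Cxcl10, a chemokine that attracts T cells, had 60.9 to 97.8 scaled RPKM in KO livers and 5.79 to 10.3 in WT livers, a difference of 3.12 ± 0.17 (adjusted p = 7.95e-14). Rsad2, Isg15 and Oasl1 rose by 2.34, 1.69 and 1.51. Of 32 chemokines and cytokines 17 were higher and 4 lower. Ccl2 (11:81849073-81850955), which recruits monocytes, had 94.6, 87.9, 33.1, 22.0, 19.8 and 33.2 in KO livers from day 7 to day 9, against 1.09 to 2.91 in WT livers. Of 28 acute phase genes 11 were higher and 2 lower, and Crp was among the falls, with 112 to 243 in KO livers and 286 to 350 in WT livers.

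Markers of other liver cells moved unequally, and their part in the results above was not tested. Stellate cell, fibroblast and matrix genes were higher in 41 of 48 and lower in none, with a median of 0.95 and a summed level of 624.1 to 815.1 scaled RPKM in KO livers and 499.8 to 591.3 in WT livers. Col4a1, a basement membrane collagen, had 17.4 to 30 in KO livers and 9.13 to 13.8 in WT livers, Lamc1 rose by 1.04 and the proteoglycan Lum by 1.01. Duct and progenitor markers were higher in 14 of 20 and lower in none, with sums of 123.7 to 214.1 in KO livers and 89.71 to 114.5 in WT livers. Sox9 had 3.30 to 5.14 in KO livers and 0.848 to 1.43 in WT livers, Elf3 rose by 2.85 and Prom1 by 3.23. Recruited and lipid-associated macrophage markers, which share Mmp12 with the matrix list, were higher in 18 of 26 and lower in 2, with sums of 1168 to 1480 in KO livers and 959.3 to 1329 in WT livers that overlapped; Cd14, Cd63 and Cd9 rose by 2.46, 1.76 and 1.48.

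Markers of resident Kupffer cells were higher in 2 of 18 and lower in 1, with a median of -0.07 and sums of 871.5 to 1341 scaled RPKM in KO livers and 836.7 to 1316 in WT livers. Mpeg1 rose by 0.84 and Marco by 0.88, and Cd163 fell by 1.25; Marco no longer passed without replicate 1 of KO day 8 (adjusted p = 0.0622), without replicate 1 of WT day 8 (adjusted p = 0.0609), without day 8 (adjusted p = 0.0546) or without day 9 (adjusted p = 0.0958). None of 9 neutrophil markers tested passed, the other 7 of the 16 listed being too low or not in the table, with sums of 180.7 to 595.5 in KO livers and 80.35 to 580.6 in WT livers. Lcn2, which hepatocytes also make, differed by 1.36 (adjusted p = 0.104); it passed without the centring (1.56, adjusted p = 0.0478) and without replicate 2 of WT day 8 (1.88, adjusted p = 0.032). Of 24 listed markers of T, B and NK cells 13 were high enough to be tested and 1 was higher, with sums of 19.30 to 33.51 in KO livers and 17.18 to 28.66 in WT livers. That gene, Lck, rose by 0.51 (adjusted p = 0.043) and no longer passed without KO day 7 replicate 1, KO day 8 replicate 1 or 2, KO day 9 replicate 1 or 2, WT day 7 replicate 1, WT day 8 replicate 1 or WT day 9 replicate 1 or 2 (adjusted p from 0.051 to 0.111).

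Of 26 endothelial markers 2 were higher and 3 lower, but 4 were higher and none lower without the centring, with sums of 167.1 to 295.7 in KO livers and 204.8 to 303.6 in WT livers. Ptprb and Robo4 fell by 0.50 and 0.37, and Rspo3 and Vwf rose by 0.30 and 0.44. Ptprb no longer passed without WT day 7 replicate 1 (adjusted p = 0.0507) and Robo4 without WT day 8 replicate 1 (adjusted p = 0.0503). Rspo3 no longer passed without replicate 1 of WT day 7 or WT day 8 (adjusted p = 0.0513 and 0.0659), and Vwf without KO day 7 replicate 1, KO day 8 replicate 1, KO day 9 replicate 2 or WT day 7 replicate 2 (adjusted p from 0.0516 to 0.112). Krt4, an epithelial keratin listed as a sign of carried-over tissue, had 0.316 to 2.27 in KO livers and 3.31 to 10.6 in WT livers.

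**Figure D4:**
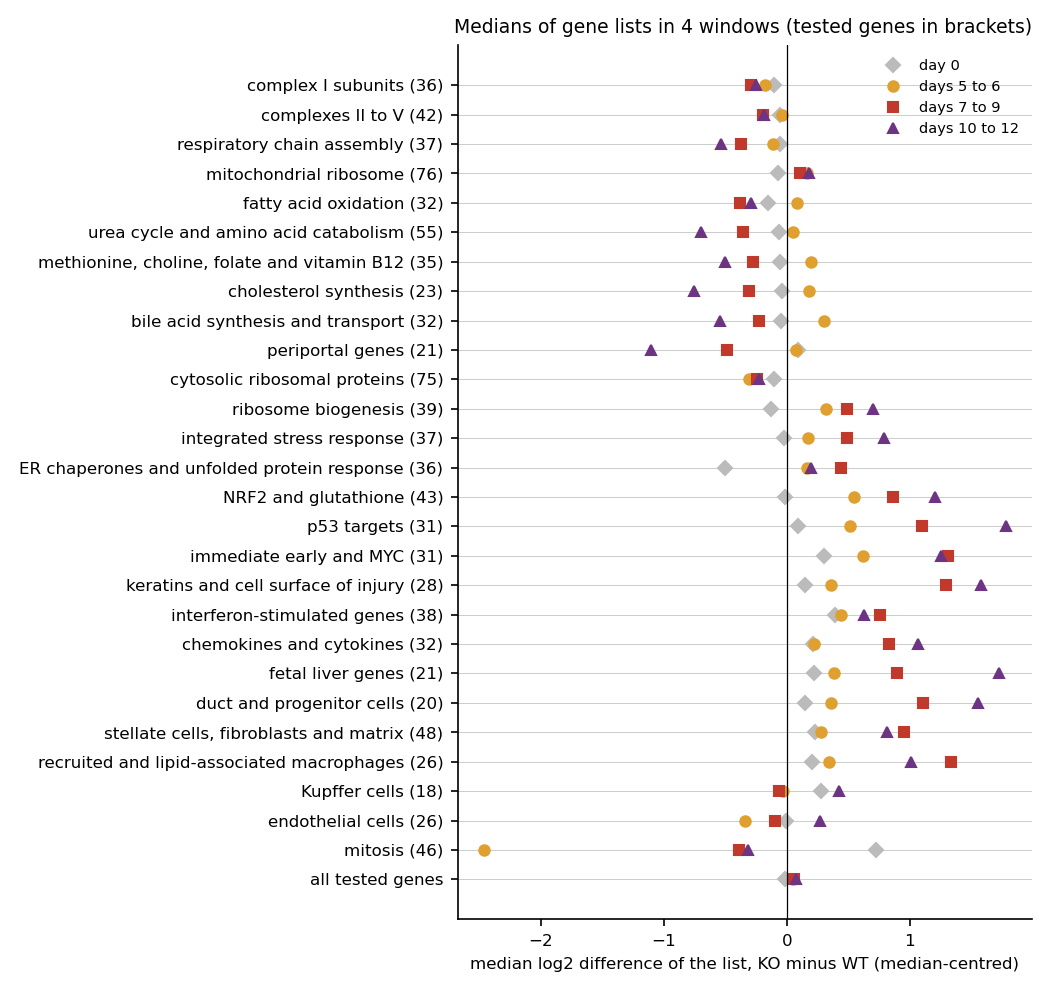
Median difference between KO and WT livers over the tested genes of 27 gene lists and over all tested genes (x axis, log2, median-centred) in 4 windows of the course: day 0 (diamonds), days 5 to 6 (circles), days 7 to 9 (squares) and days 10 to 12 (triangles). On days 7 to 9 the NRF2, p53, keratin and immediate early lists lie between 0.86 and 1.31 and the fatty acid, amino acid and periportal lists between -0.49 and -0.35; without the centring every square lies 0.20 higher, which brings the cytosolic ribosomal proteins close to 0.

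On day 0, with 2 KO and 2 WT livers, 11 genes differed between the genotypes. The difference on days 7 to 9 departed from that on day 0 in 3891 genes (31.8%), among them 635 of the 932 genes raised and 822 of the 931 genes lowered by 2-fold or more. The raised and lowered genes were picked by the days 7 to 9 difference, which is part of this comparison, so the choice itself favours a departure. Within the first batch 59 genes departed, and within the second 1532. Thtpa, Trmt10a, Etfdh, B3gnt1, 0610011F06Rik and 2410015M20Rik had the smallest p-values of this change. B3gnt1 had 1.09 to 1.77 scaled RPKM in KO livers and 11.0 to 15.8 in WT livers on days 7 to 9, and 2410015M20Rik 4.50 to 8.44 in KO livers and 50.6 to 71.2 in WT livers.

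Against days 5 to 6, with 4 livers per genotype, the difference was higher in 896 genes (7.33%) and lower in 1200 genes (9.82%). These 2096 genes compare with 998 without the centring, 280 within the second batch and none within the first. Of the raised genes 244 had grown and 10 had shrunk, and of the lowered genes 323 had grown further from WT and 22 had come back. These genes were picked by their difference on days 7 to 9, which enters this comparison too, so the choice itself favours growth. Macrod1 (19:7131258-7272551), a mitochondrial hydrolase of ADP-ribose, changed side: it had 18.9 to 33.6 scaled RPKM in KO livers and 14.0 to 18.6 in WT livers on days 5 and 6, and 2.08 to 6.5 in KO livers and 15.5 to 25.6 in WT livers on days 7 to 9. Surf1 had 21.6 to 25.7 in KO livers and 21.7 to 25.9 in WT livers on days 5 and 6, and 8.17 to 16.9 in KO livers and 23.4 to 30 in WT livers on days 7 to 9. Tubb6 had 6.45 to 7.45 in KO livers and 6.71 to 9.76 in WT livers on days 5 and 6, and 14.8 to 37.7 in KO livers and 4.03 to 7.59 in WT livers on days 7 to 9. Ccdc107, Fem1a and Dalrd3 also became lower, and Spon2, an extracellular matrix protein, became higher.

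The change since days 5 to 6 was unevenly spread over the lists. Of 55 urea cycle and amino acid genes 26 had become lower and none higher, and of 32 fatty acid oxidation genes 12 had become lower and none higher. Ccl2 gained 2.99 (adjusted p = 0.000115), Gsta1 3.78 (adjusted p = 0.000621) and Srxn1 1.95 (adjusted p = 7.06e-07), whereas the differences of Mmachc (-4.996), Trmt10a (3.17), Yy1 (1.30) and Hcfc1 (0.99) on days 5 to 6 were close to those on days 7 to 9. In the mitosis list the difference became higher in 37 of 46 genes. Its sums on days 5 and 6 were 23.6 to 45.9 scaled RPKM in KO livers and 144 to 192 in WT livers, against 35.9 to 75.5 in KO livers and 36.1 to 175 in WT livers on days 7 to 9.

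**Figure D5:**
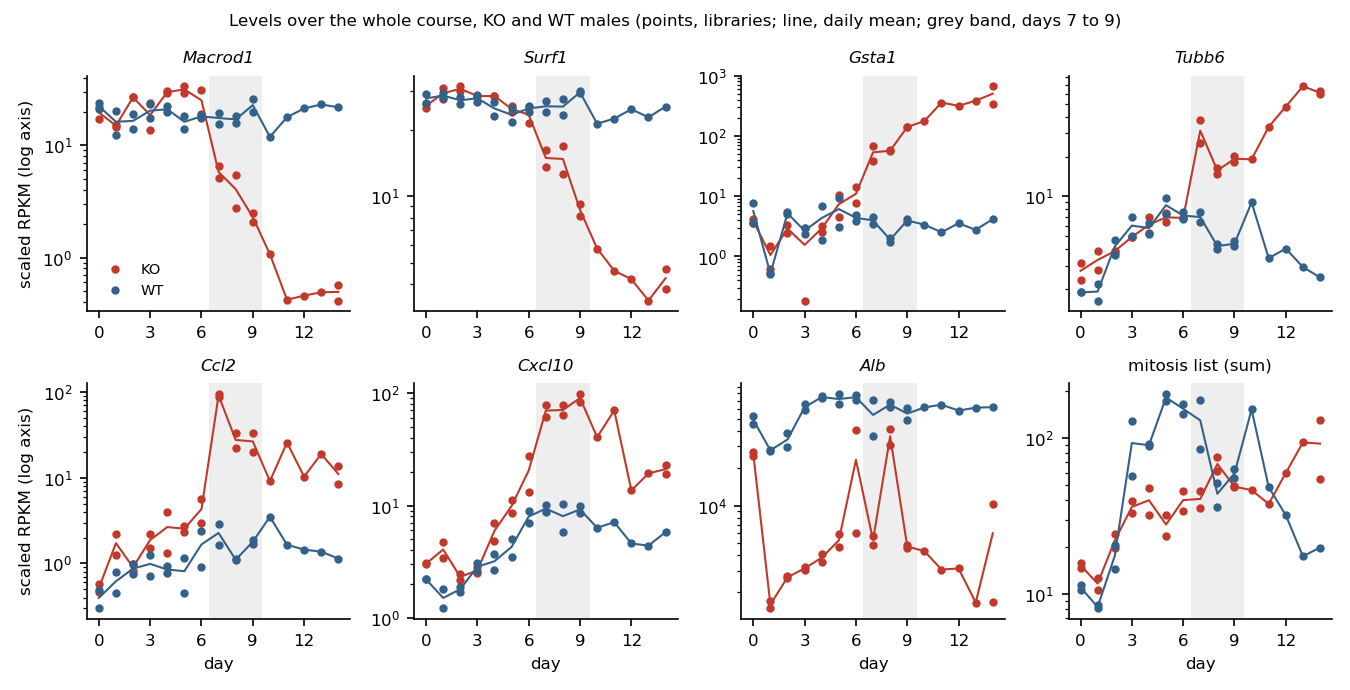
Level of 7 genes and the summed level of the 46 tested mitosis genes in KO and WT males over the whole course (scaled RPKM, log axis; points are libraries, lines daily means, the grey band days 7 to 9). Inside the band Macrod1 and Surf1 lie below the WT libraries, and Gsta1, Tubb6, Ccl2 and Cxcl10 lie above them. Macrod1 lay above the WT libraries on days 5 and 6. Alb is below the WT libraries of the band in 5 of its 6 KO libraries.

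By days 10 to 12, with 3 livers per genotype, the difference had become higher than on days 7 to 9 in 212 genes (1.73%) and lower in 287 genes (2.35%), 499 in all, against 925 after quantile normalization, 228 in a fit of the compared days alone, 306 without day 7, 205 without day 8 and 4 within the first batch. Among the raised genes 46 had grown and 10 had shrunk, and among the lowered genes 75 had grown further from WT and 3 had come back. These genes too were picked by their days 7 to 9 difference, which enters this comparison. Macrod1 went on to 0.421 to 1.07 scaled RPKM in KO livers, against 11.9 to 21.3 in WT livers, and Surf1 to 4.2 to 5.79 in KO livers, against 21.4 to 24.9 in WT livers. Scnn1a, a sodium channel subunit, stood at 0.551 to 1.12 in KO livers and 8.46 to 10.5 in WT livers, after 1.61 to 2.75 in KO livers and 6.33 to 8.30 in WT livers on days 7 to 9. AI463170 and Gps2, a subunit of the NCoR corepressor, became lower too, and Slc48a1, a heme transporter, became higher. Ccl2 moved the other way, with 9.12 to 25.7 in KO livers and 1.45 to 3.50 in WT livers on days 10 to 12 (change -1.89, adjusted p = 0.0347).

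Within the window itself, 10 genes (0.0818%) differed among days 7, 8 and 9 in their KO minus WT difference, and 1095 genes had an unadjusted p under 0.05. The 10 genes became 0 without replicate 2 of KO day 9, 39 without replicate 1 of KO day 7, 1 without the centring and 123 within the second batch. Taken singly, the days gave 5137, 4213 and 5233 called genes, and 99.5% of the genes called at 2-fold or more kept their sign on all 3. Because those genes were picked by their mean over the same 3 days, this share largely follows from the choice. Apba3 (10:80730917-80735991), an adaptor of the Mint family, had 3.37 and 2.84 scaled RPKM in KO livers on day 7, 3.72 and 3.4 on day 8 and 1.09 and 0.768 on day 9, against 8.59 to 12.6 in WT livers; over the window it fell by 2.30, and by 1.65 without day 9. Jmjd8 had 8.32 and 6.69 in KO livers on day 7, 6.32 and 7.75 on day 8 and 2.48 and 2.71 on day 9, against 19.5 to 25.4 in WT livers. 1110004F10Rik, Dnlz, Surf1 and Dalrd3 were likewise lowest in the KO livers of day 9.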

How the data were processed

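Poly(A) RNA from individual mouse livers was sequenced with stranded TruSeq libraries and single-end reads of 50 bases, per the labels' protocols; whether the counting used strand is not given in the sources used here. TopHat2 2.0.13, Bowtie 1.1.2, edgeR and the mm9 build are named in the submitters' processing notes, without their settings. The authors deposited 1 table of log2 RPKM values for 15616 genes, in which a constant of about 8.9e-05 RPKM stands in for 0, so that 5.02% of the values lie at the minimum. Read depth was estimated from the step that 1 read makes in 295 weak genes, of whose 2397 values 94.9% came out as whole reads within 0.02 reads.

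Each library of the 51 males was centred on its median over 12221 genes kept by a filter that asked for 4 or more male libraries at a log2 value of 0 or above. A linear model with a term for each genotype and day was fitted over all males with limma 3.58.1 in R 4.3.3, with an intensity trend, 21 residual degrees of freedom and 3.55 prior degrees of freedom; a script of the fit was checked on simulated data. Contrasts were KO minus WT within each day, averaged over days 7 to 9, and its difference from the same contrast on day 0, on days 5 to 6 and on days 10 to 12, and p-values were adjusted over all tested genes by the Benjamini-Hochberg method. Comparisons with other days share no libraries with days 7 to 9. Per gene set, counts and medians are given, with no test of the set.

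The members and the gene lists were chosen with earlier results of these data known, and lists share members. Genes named are Hcfc1, the 12 largest rises and falls and the 8 largest in RPKM among called genes with no overlap, one sign on all 3 days and a mean of at least 1 RPKM, up to 4 called members of each list with the smallest p, 6 genes per difference between windows, and promoters of large falls that hold a searched word. The rises with no library at 0, the promoter neighbours, Atp5d and Mdh1 in the promoter account were chosen after their values were seen. One marker gene is not reported here. Positions are those of NCBIM37, matched by symbol.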

Additional observations from a re-analysis of the deposited data

Results flagged for a closer look

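Single libraries stood apart from the other 5 of their group in 17 of 445 groups checked, by a gap test at the 95% level that chance passes in about 1 in 20 groups. Among KO livers, Ndufaf3 was at 1.2 scaled RPKM in replicate 1 of day 9, Acot3 at 0.956 and Stat5b at 10.6 in replicate 2 of day 7, and Hsph1 at 7.64 in the same library. Dgat2 at 104 and Trmt10a at 9.6 stood apart in replicate 1 of KO day 8, and Pfkfb3 at 2.22 in replicate 2 of KO day 8.

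Among WT livers, Hcfc1 was at 4.77 scaled RPKM in replicate 2 of day 9, Cyp4a14 at 32.1 in replicate 1 of day 7, and Nek2 at 5.18 and Prim1 at 5.49 in replicate 2 of day 7. Cxcl10 at 5.79 and AI463170 at 1.67 stood apart in replicate 1 of WT day 8, Akr1d1 at 92.3 and Bhlhe40 at 8.45 in replicate 2 of WT day 8, and Pccb at 70.5 and F12 at 291 in replicate 1 of WT day 9. With these libraries included, F12 was the only gene named here in which KO and WT livers overlapped, at 287 to 482 in KO livers and 213 to 291 in WT livers. In all the other genes of these flagged groups the KO and WT livers did not overlap.

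Tests of the change between windows passed in 3891 genes for days 7 to 9 against day 0, in 2096 genes against days 5 to 6 and in 499 genes for days 10 to 12 against days 7 to 9. Among days 7, 8 and 9 the difference changed in 10 genes.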

How the results depend on the processing

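Of the 4062 higher and 3560 lower genes, 635 and 749 were left within the first batch, whose 1 residual degree of freedom comes from 2 KO livers of day 14, and 2080 were lower without the centring. Leaving out 1 library at a time gave 3791 to 3931 higher and 3345 to 3570 lower genes. By 2-fold or more, 1399 genes were higher with no filter on low values, 603 with the stricter filter and 503 within the first batch, and 577 were lower with the stricter filter and 581 within the first batch. The 3891 genes that departed from day 0 became 59 and 1532 within the first and second batch, and 3597 to 3981 with 1 library left out. The 2096 genes that departed from days 5 to 6 became 998 without the centring, 0 and 280 within the first and second batch, and 1687 to 2338 with 1 library left out. The 499 genes that changed by days 10 to 12 became 925 after quantile normalization, 228 in a fit of the compared days alone, 4 within the first batch, 306 without day 7, 205 without day 8, and 344 to 668 with 1 library left out. The 10 genes that differed among days became 1 without the centring, 38 after quantile normalization, 6 without the intensity trend, 20 with no filter, 37 with batch as a term, 123 within the second batch, and 0 to 39 with 1 library left out. Batches, filters and days left out hold fewer libraries or genes by construction; the cause of the other shifts was not tested.

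With the replicate number as a block, 4210 genes were higher and 3657 lower, and none differed among days. The numbers were not shown to pair the samples: deviations of same-numbered KO and WT libraries correlated at 0.18 on day 7, -0.003 on day 8 and -0.055 on day 9. Of 247 named genes, 245 passed; over 26 alternatives their call stayed in 6245 instances, was lost in 148 and gained in 6, 98 genes had a changed call under at least 1 alternative, and 10 changed when 1 library was left out. No named gene changed sign. Genes with libraries at 0 have no usable fold, and over 2000 bases of exon a level near 0.03 RPKM is a single read, with more RPKM per read in shorter genes.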

Other observations

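Het females, heterozygous for the hepatocyte knockout and sampled with 1 library per day, belong to no comparison above. On days 7 and 8 Hcfc1 stood at 7.7 and 8.17 scaled RPKM in Het livers, Thtpa at 7.36 and 6.82, and Mmachc at 8.44 and 6.13. Uqcr10 stood at 111 and 91.9 and Ndufa3 at 100 and 72.6. Of the genes raised in KO livers, Trmt10a stood at 1.57 and 2.36 in Het livers, Gsta1 at 2.84 and 4.19, Ccl2 at 3.55 and 10.4, Cxcl10 at 10.7 and 31, and Krt8 at 68.5 and 73.9. Sex and genotype differ together here and cannot be told apart.

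Alb was also uneven outside days 7 to 9. It stood at 25200 and 27100 scaled RPKM in KO livers on day 0, between 1490 and 5860 on days 1 to 5, and at 6040 and 40700 on day 6, whereas WT livers of the whole course lay between 27700 and 79100. In Het livers it stood at 42600 on day 0, between 3380 and 4510 on days 4 to 8, 37700 on day 10, 5060 on day 11, 36300 on day 12 and 5270 on day 13.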
